A study of Mus musculus with 10 samples.

Results

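The genes that arm a lymphocyte to kill were followed here in effector memory (EM) γδ T cells of the spleen, 12 weeks after a cured malaria infection. The 10 genes were taken by name, out of 27179 genes counted, by a rule that names them and uses no measured value. The genes were nevertheless chosen with earlier results of these data known. They comprise 5 granzyme genes (Gzma, Gzmb, Gzmc, Gzmk and Gzmm), the perforin gene Prf1, Nkg7 for a membrane protein of cytotoxic granules, Cst7 for cystatin F, Ctsw for cathepsin W, and Fasl for Fas ligand. EM γδ T cells were FACS sorted as CD3+ γδTCR+ CD62L- CD44+ splenocytes from 5 pre-exposed mice and 5 naïve mice, and each mouse gave 1 RNA-sequencing library. The pre-exposed mice were female C57BL/6 animals infected at 6 to 8 weeks of age with 50000 red blood cells carrying Plasmodium chabaudi (iRBC), a rodent malaria parasite. Chloroquine and pyrimethamine were given from day 14, and the cells were sorted 12 weeks after treatment without any stimulation in culture. The naïve mice were female C57BL/6 animals that received the same drugs and no parasite. The labels name no transgene or deletion, and both groups shared sex, strain and drug treatment.

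Cytotoxic lymphocytes store perforin and granzymes in secretory lysosomes and release them onto a target cell. Perforin opens the target membrane, granzymes are serine proteases that then enter and start cell death, and cathepsins and their inhibitor cystatin F act on proteases inside the granule. Fas ligand kills by a separate route, by binding the receptor Fas on the target. γδ T cells are known to use both routes.

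The labels of the cells were checked on their defining markers. Trdc, the constant region of the δ chain, had between 1141 and 3626 CPM (counts scaled to 1e6 per library) in pre-exposed mice and between 1826 and 3873 CPM in naïve mice, and Cd3e had between 556.9 and 1346 CPM in pre-exposed mice and between 619.2 and 721.6 CPM in naïve mice. CPM were computed from the counts and a library size scaled by the trimmed mean of M-values (TMM). The summed level of 10 γδ T cell markers was 4769 CPM in pre-exposed mouse 1, against between 7602 and 11846 CPM in naïve mice. The highest sum, 15182 CPM, was in pre-exposed mouse 5. At an edgeR adjusted p under 0.05, 1 marker was called higher (Cd3d, log2 fold change 1.02, edgeR adjusted p = 0.046) and 0 lower. Sox13 and Blk had log2 fold changes of -1.55 and -1.39 (edgeR adjusted p = 0.0646 and 0.0545). Total counts per library ran between 8747888 and 22542832 in pre-exposed mice and between 6587199 and 19993444 in naïve mice. Pre-exposed mouse 5 stood apart from the others. Its 10 most abundant genes took 24.7% of its counts, against at most 10.2% in the 9 other libraries, and its TMM factor was 0.68, against at least 0.999 in the others. A trend with gene length also separated libraries. Spearman's rho between gene length and a gene's deviation from its mean was between 0.259 and 0.413 in naïve mice and 0.273 in pre-exposed mouse 1, and between -0.536 and -0.136 in pre-exposed mice 2 to 5. In the sample descriptions, an index pair is missing for pre-exposed mice 2 to 4 and present for the 7 other libraries, and no source used here says whether this marks a batch. Mitochondrial genes took 0.0842, 0.117 and 0.0569% of counts in pre-exposed mice 2 to 4 and 0.601 and 3.36% in mice 1 and 5. In naïve mice they took between 0.271 and 0.714%. Immunoglobulin genes took between 0.345 and 6.68% in pre-exposed mice and between 0.0845 and 0.737% in naïve mice. The cause of these differences was not tested.

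The promoters of 4 members are shown because these genes carried the clearest differences between groups, 3 by the adjusted test and Cst7 by a complete separation of the mice. Each sequence is the RefSeq window of 250 bases before to 50 bases after the gene's start, 5′ to 3′ on the gene's strand, in build GRCm38.p6. Windows were found for 9 of the 10 members, with 10 windows in all since Gzmm had a pair, and none was matched for Ctsw. Capitals mark matches, on either strand, to 4 short motifs of transcription factors known in lymphocytes, namely TGTGGT for Runx factors, GTGTGA for T-box factors, TGANTCA for AP-1 and AGGAAG for ETS factors. No motif match overlapped another.
Nkg7 promoter (chr7:43436888-43437187, + strand): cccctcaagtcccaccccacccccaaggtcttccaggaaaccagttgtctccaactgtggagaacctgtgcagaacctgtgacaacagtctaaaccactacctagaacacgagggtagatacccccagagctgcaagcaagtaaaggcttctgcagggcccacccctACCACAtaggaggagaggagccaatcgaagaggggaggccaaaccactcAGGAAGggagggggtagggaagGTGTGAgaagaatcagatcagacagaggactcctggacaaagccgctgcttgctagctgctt
Gzma promoter (chr13:113100932-113101231, - strand): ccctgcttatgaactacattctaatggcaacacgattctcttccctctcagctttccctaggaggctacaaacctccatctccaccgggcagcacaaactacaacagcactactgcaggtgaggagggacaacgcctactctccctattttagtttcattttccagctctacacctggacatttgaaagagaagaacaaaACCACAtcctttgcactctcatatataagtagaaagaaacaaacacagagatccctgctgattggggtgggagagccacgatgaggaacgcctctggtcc
Gzmb promoter (chr14:56262285-56262584, - strand): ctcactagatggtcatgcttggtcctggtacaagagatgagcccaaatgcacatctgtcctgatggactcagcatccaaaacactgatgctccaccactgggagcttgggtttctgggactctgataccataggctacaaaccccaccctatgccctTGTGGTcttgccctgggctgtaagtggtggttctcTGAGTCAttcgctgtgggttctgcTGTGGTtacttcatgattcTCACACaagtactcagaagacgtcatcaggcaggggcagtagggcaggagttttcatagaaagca
Cst7 promoter (chr2:150570165-150570464, + strand): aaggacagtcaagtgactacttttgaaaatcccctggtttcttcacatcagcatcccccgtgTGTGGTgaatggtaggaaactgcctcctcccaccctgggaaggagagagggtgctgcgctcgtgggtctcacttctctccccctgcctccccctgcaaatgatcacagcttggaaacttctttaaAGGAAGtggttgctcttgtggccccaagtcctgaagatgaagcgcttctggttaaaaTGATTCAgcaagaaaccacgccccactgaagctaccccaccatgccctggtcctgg

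Nkg7 lies at chr7:43437138-43438246. Gzma and Gzmk lie on chromosome 13, Gzmb and Gzmc on chromosome 14, Gzmm and Prf1 on chromosome 10, Fasl on chromosome 1, Cst7 on chromosome 2 and Ctsw on chromosome 19. In the Nkg7 window, a Runx match lay at position -83 from the start site, an ETS match at -34 and a T-box match at -12. The Gzma window held a single Runx match, at -50. The Gzmb window held Runx matches at -93 and -34, an AP-1 match at -58 and a T-box match at -15, and the Cst7 window held a Runx match at -188, an ETS match at -63 and an AP-1 match at -6. A Runx match was found for 7 of the 9 members, and 16.8% of the 32851 windows of the table held one. Members are counted as genes, with a match in any of their windows, and the table is counted in windows. No test compared these shares. The T-box, AP-1 and ETS motifs were found for 4, 2 and 6 members, and they occur in 14.5%, 7.81% and 35.4% of all windows. A match is a description of letters and was not tested for binding.

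Nkg7 rose, and every pre-exposed mouse stood higher than any naïve mouse. NKG7 is known from mice to support the release of cytotoxic granules. It had 823.9, 1372, 1376, 938 and 1058 CPM in pre-exposed mice 1 to 5, against 482.2, 536.8, 478.3, 370.3 and 419.6 CPM in naïve mice 1 to 5. The lowest pre-exposed mouse thus lay above the highest naïve mouse, and single pre-exposed mice stood at between 1.8 and 3.01 times the naïve mean. The log2 fold change was 1.28 (SE 0.22, 95% interval between 0.81 and 1.76, edgeR adjusted p = 0.0108). The exact two-sided permutation test gave p = 0.00794, the smallest p that 5 against 5 allows. Without any single library Nkg7 was still called, with log2 fold changes between 1.18 and 1.37 and edgeR adjusted p between 0.00191 and 0.0495. Nkg7 is a short gene of 813 bases, and at this length the trend with gene length alone differed between groups by 0.64 on the log2 scale. With that trend removed, the log2 fold change of Nkg7 was 0.64 (edgeR adjusted p = 0.129), and with pre-exposed mouse 5 also left out it was 0.75 (edgeR adjusted p = 0.0214). Pre-exposed mice 1 and 5 alone gave 1.10 and mice 2 to 4 alone 1.38 (edgeR adjusted p = 0.116 and 0.000362). With the index pair as a covariate the log2 fold change was 1.04 (edgeR adjusted p = 0.0624). The call was lost under 6 of 28 alternatives, and the edgeR, limma or DESeq2 adjusted p ran between 2.14e-06 and 0.351.

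Of the 10 members, all of which passed the filter on low counts, edgeR called 3 higher in pre-exposed mice (Nkg7, Gzma and Gzmb) and 0 lower at an adjusted p of 0.05. Among all 12655 genes tested it called 648 higher, which is 5.12%, and 796 in either direction, which is 6.29%. At an unadjusted p of 0.05, edgeR put 7 of the 10 members higher, against 15.6% of all genes, and 0 lower. The groups did not overlap, with all pre-exposed values the higher ones, for 2 members (Nkg7 and Cst7), and for 2.77% of all genes. The log2 fold change was above 0 for 10 of 10 members with a median of 1.00, while the median over all genes tested was 0.02. With the length trend removed the median of the members was 0.46 and edgeR called 0 of them, with unadjusted p of 0.0242, 0.00658 and 0.0075 for Gzma, Gzmb and Nkg7. The genes passed the filter also through the group in which they are high, so these counts describe the members and test nothing about them as a set.

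**Figure D1:**
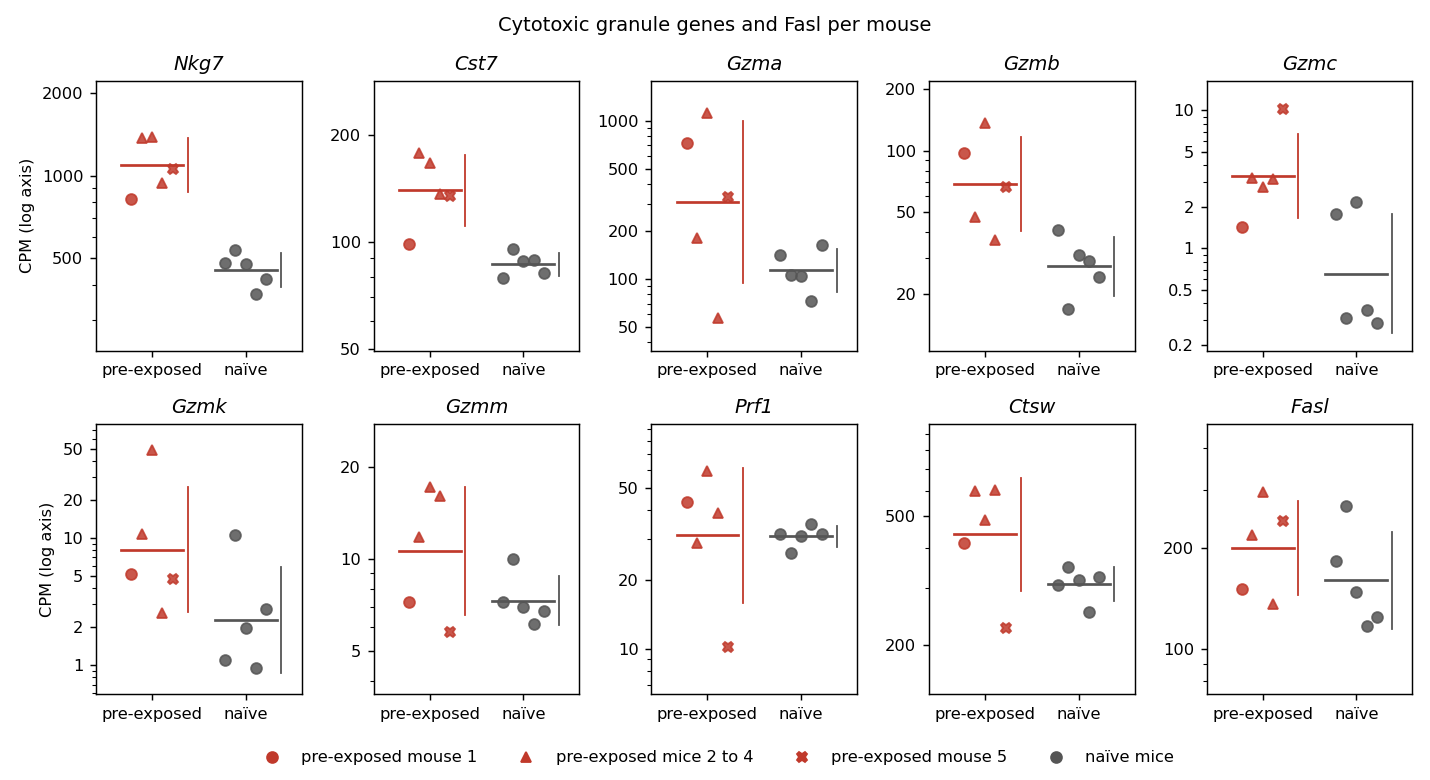
Each panel plots one gene in CPM on a log axis, with pre-exposed mice (red) left of naïve mice (grey), a horizontal line for the mean and a vertical one spanning ± SD of the log2 values (n = 5 each). The 5 pre-exposed mice lie above all naïve mice for Nkg7 and Cst7, while Gzma spans 56.3 to 1119 CPM among pre-exposed mice and mouse 5 (cross) is the lowest of all mice for Gzmm, Prf1 and Ctsw.

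Gzma, which encodes the tryptase granzyme A, rose on average but very unevenly. Pre-exposed mice 1 to 5 had 727, 180.6, 1119, 56.3 and 332.5 CPM, against 141, 106.1, 104.5, 73 and 164.6 CPM in naïve mice 1 to 5. Of the pre-exposed mice, 4 lay above every naïve mouse and mouse 4 lay below every one, and the highest mouse stood 19.9-fold above the lowest, against 2.25-fold among naïve mice. The mean was 483.1 ± 435.9 CPM in pre-exposed mice and 117.8 ± 35.5 CPM in naïve mice (SD, n = 5 each). This gave a log2 fold change of 2.04 (SE 0.57, 95% interval between 0.82 and 3.25, edgeR adjusted p = 0.0478), while the exact permutation test on the mice gave p = 0.119. The call is at the margin, since it was lost under 23 of 28 alternatives with adjusted p between 0.00651 and 0.884, among them the removal of any naïve mouse and of pre-exposed mouse 1, 2 or 3. Pre-exposed mice 1 and 5 alone gave 2.22, and mice 2 to 4 alone 1.91 (edgeR adjusted p = 0.0386 and 0.0894). Without pre-exposed mouse 3 the log2 fold change was 1.46 and with the length trend removed 1.59 (edgeR adjusted p = 0.128 and 0.214).

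Gzmb, for granzyme B, which cuts after aspartate and activates caspases, rose with less spread. It had 97.4, 47.4, 136.8, 36.8 and 66.3 CPM in pre-exposed mice 1 to 5, against 41.1, 16.9, 30.9, 28.9 and 24.1 CPM in naïve mice 1 to 5. Only pre-exposed mouse 4 lay within the naïve range, just under naïve mouse 1. In edgeR the log2 fold change was 1.44 (SE 0.36, 95% interval between 0.68 and 2.20, edgeR adjusted p = 0.0324), and the exact permutation test gave p = 0.0159. The call was lost under 15 of 28 alternatives, with adjusted p between 0.00468 and 0.629, which include each naïve mouse left out, pre-exposed mouse 2 or 3 left out and the length trend removed (log2 fold change 1.20, edgeR adjusted p = 0.121). Pre-exposed mice 1 and 5 alone gave 1.58 and mice 2 to 4 alone 1.33 (edgeR adjusted p = 0.111 and 0.0158).

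Both granzymes shared the order of the pre-exposed mice, with mouse 3 highest, then 1, 5, 2 and 4. This order is a description of 5 mice. Gzma was the most abundant granzyme per kilobase of gene length in all 10 libraries. Its level per kilobase was 12.1, 6.15, 13.2, 2.47 and 8.1 times that of Gzmb in pre-exposed mice 1 to 5, against 5.54, 10.1, 5.46, 4.07 and 11 times in naïve mice 1 to 5, so that the groups overlapped in this ratio. Added up, the 5 granzymes gave 838.3, 253.7, 1325, 115 and 419.5 CPM in pre-exposed mice 1 to 5, against between 109.4 and 198.5 CPM in naïve mice, and pre-exposed mouse 4 lay within the naïve range.

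The remaining granzymes were scarce and were not called. Gzmc, for a granzyme of mouse cytotoxic cells, had 1.43, 3.21, 2.79, 3.19 and 10.2 CPM in pre-exposed mice 1 to 5, against 1.76, 0.31, 2.15, 0.354 and 0.289 CPM in naïve mice 1 to 5. These rest on between 15 and 66 counts in pre-exposed mice and between 2 and 32 counts in naïve mice, and naïve mice 4 and 5 were at or under the 3 counts that a count of 0 would allow. For Gzmc the log2 fold change was 1.85 (SE 0.64, edgeR adjusted p = 0.095), and the exact permutation test gave p = 0.0238. Without pre-exposed mouse 5 it was 1.34 (edgeR adjusted p = 0.107). Gzmk, for granzyme K, a tryptase common in memory T cells, had 5.23, 10.8, 48.9, 2.57 and 4.72 CPM in pre-exposed mice 1 to 5, against 1.1, 10.5, 1.95, 0.945 and 2.75 CPM in naïve mice 1 to 5. Its high values came from pre-exposed mouse 3 and from naïve mouse 2, and the log2 fold change of 1.98 (SE 0.80, edgeR adjusted p = 0.141) was 0.69 without pre-exposed mouse 3 (edgeR adjusted p = 0.595) and 3.14 without naïve mouse 2 (edgeR adjusted p = 0.0713). That of Gzmk was 0.40 with the index pair as a covariate (edgeR adjusted p = 0.869). Pre-exposed mice 1 and 5 alone gave 0.46 and mice 2 to 4 alone 2.30 (edgeR adjusted p = 0.816 and 0.0647). Gzmm, for granzyme M, known from NK cells, had 7.23, 11.8, 17.3, 16.1 and 5.81 CPM in pre-exposed mice 1 to 5, against 7.27, 10, 7, 6.14 and 6.79 CPM in naïve mice 1 to 5. Here pre-exposed mice 2 to 4 lay above all naïve mice and mice 1 and 5 did not. For Gzmm the log2 fold change was 0.65 over all mice (edgeR adjusted p = 0.266), 0.91 for pre-exposed mice 2 to 4 alone (edgeR adjusted p = 0.0289) and -0.14 for pre-exposed mice 1 and 5 alone (edgeR adjusted p = 0.891), and the split goes with the missing index pair. With the gene-length trend removed, Gzmc, Gzmk and Gzmm had log2 fold changes of 1.26, 1.34 and 0.28 (edgeR adjusted p = 0.303, 0.423 and 0.709).

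Prf1, for perforin, was not called. It had 43.5, 28.7, 59.1, 39.1 and 10.2 CPM in pre-exposed mice 1 to 5, against 31.4, 26.1, 30.8, 34.9 and 31.4 CPM in naïve mice 1 to 5. Naïve mice were close to each other, at 1.34-fold between lowest and highest, while pre-exposed mice ran from mouse 5, the lowest of all, to mouse 3, the highest of all. The log2 fold change was 0.24 (SE 0.34, 95% interval between -0.49 and 0.97, edgeR adjusted p = 0.716), and the exact permutation test gave p = 0.976. Its sign turned without pre-exposed mouse 3, to a log2 fold change of -0.01. The level of Gzma per kilobase over that of Prf1 was 39.1, 14.7, 44.3, 3.37 and 76.4 in pre-exposed mice 1 to 5, against 10.5, 9.53, 7.93, 4.9 and 12.3 in naïve mice 1 to 5. In 4 of 5 pre-exposed mice this ratio lay above every naïve mouse and in mouse 4 below every one. The ratio was not corrected for gene length. The length trend was higher in pre-exposed mice by 0.59 on the log2 scale at the length of Gzma and by 0.03 at that of Prf1. The highest ratio, in pre-exposed mouse 5, rests on 56 counts of Prf1.

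Cst7 and Ctsw encode an inhibitor and a protease of the granule. Cystatin F inhibits the cathepsins that process granzymes, and had 98.7, 178, 167.1, 137.1 and 135.2 CPM in pre-exposed mice 1 to 5, against 79.1, 95.5, 88.7, 89.1 and 81.8 CPM in naïve mice 1 to 5. The groups did not overlap, by a margin of 98.7 CPM in the lowest pre-exposed mouse against 95.5 CPM in the highest naïve mouse. In the fit Cst7 had a log2 fold change of 0.72 (SE 0.21, 95% interval between 0.27 and 1.18), the exact permutation test gave p = 0.00794, and the edgeR adjusted p of 0.0569 missed the threshold. It passed under 6 of 28 alternatives. The gene-length trend differed by 0.52 at the length of Cst7, and with it removed the log2 fold change was 0.18. With the index pair as a covariate that of Cst7 was 0.43 (edgeR adjusted p = 0.382). Pre-exposed mice 1 and 5 alone gave 0.48 and mice 2 to 4 alone 0.84 (edgeR adjusted p = 0.385 and 0.00379). Ctsw had 414.6, 597.3, 488.8, 601.5 and 226.5 CPM in pre-exposed mice 1 to 5, against 306, 348.4, 318.2, 252.9 and 325.1 CPM in naïve mice 1 to 5. Mice 1 to 4 of the pre-exposed group lay above all naïve mice and mouse 5 lay below all of them. Ctsw had a log2 fold change of 0.59 (SE 0.26, edgeR adjusted p = 0.176), and without pre-exposed mouse 5 it was 0.73 (edgeR adjusted p = 0.0212). It was 0.20 with the gene-length trend removed (edgeR adjusted p = 0.712), 0.05 with the index pair as a covariate (edgeR adjusted p = 0.935), 0.10 for pre-exposed mice 1 and 5 alone (edgeR adjusted p = 0.882) and 0.80 for mice 2 to 4 alone (edgeR adjusted p = 0.00439).

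Fasl, the member of the other killing route, was abundant in both groups. It had 151.4, 219.3, 294.3, 136.1 and 241.6 CPM in pre-exposed mice 1 to 5, against 183, 268.5, 148.5, 117.4 and 124.3 CPM in naïve mice 1 to 5. The groups overlapped widely, with a single pre-exposed mouse above all naïve mice. The log2 fold change was 0.31 (SE 0.28, 95% interval between -0.30 and 0.91, edgeR adjusted p = 0.54), and the exact permutation test gave p = 0.317. It was called under 0 of 28 alternatives, with log2 fold changes between 0.06 and 0.63.

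**Figure D2:**
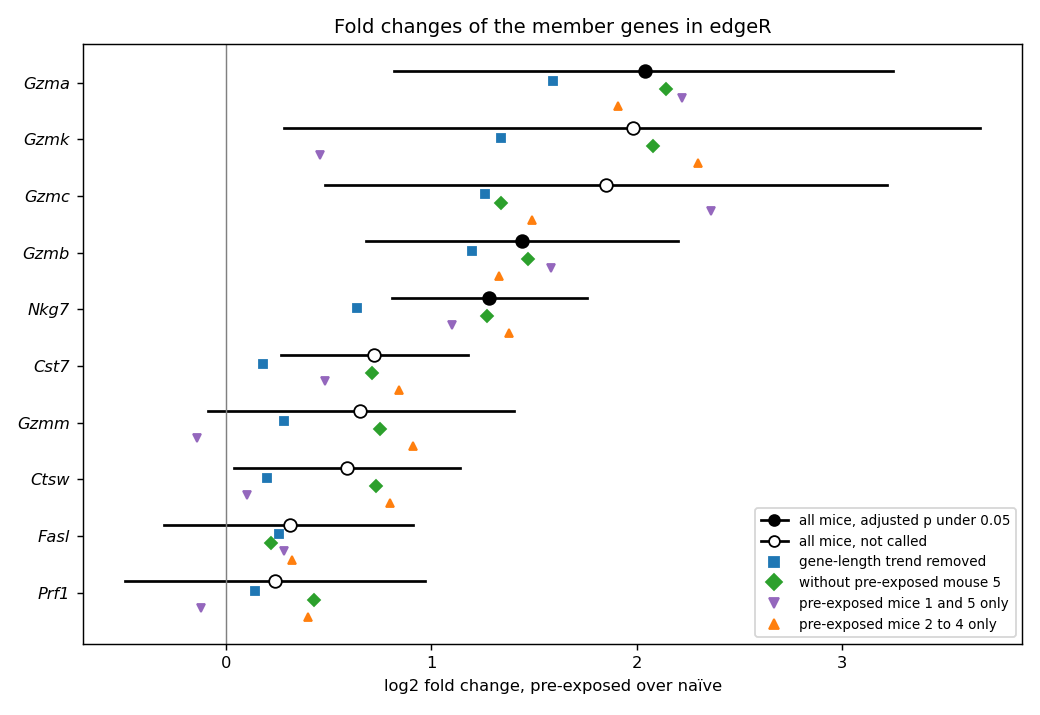
Points are log2 fold changes of pre-exposed over naïve mice from edgeR, with black circles for all mice (bars are 95% intervals, filled where the adjusted p is under 0.05) and coloured symbols for the gene-length trend removed, pre-exposed mouse 5 left out, and pre-exposed mice 1 and 5 or 2 to 4 alone. Gzma, Gzmb and Nkg7 are filled, the length-corrected value of Nkg7 is 0.64 against 1.28, and Gzmm and Prf1 lie below 0 with mice 1 and 5 only.

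Per kilobase of gene length, the members covered a wide range. Dividing by length does not remove the trend with gene length that separated libraries. Nkg7 stood highest with a mean of 1370 CPM per kilobase in pre-exposed mice and 562.7 in naïve mice. In naïve mice Ctsw followed at 251.7, then Gzma at 134.2, Cst7 at 88.1, Fasl at 87, Gzmb at 20, Prf1 at 15, Gzmm at 5.79, Gzmk at 4.37 and Gzmc at 1.04 CPM per kilobase. Among naïve mice the ranges of neighbours overlapped for Gzma and Cst7, Cst7 and Fasl, Gzmb and Prf1, Gzmm and Gzmk, and Gzmk and Gzmc. In pre-exposed mice Gzma averaged 550.2 CPM per kilobase, above Ctsw at 378.1, but Gzma was below Ctsw in mice 2 and 4, and the means that followed were 145.3 for Cst7, 107.8 for Fasl, 54.3 for Gzmb, 18.2 for Gzmk, 17.6 for Prf1, 9.05 for Gzmm and 4.45 for Gzmc. Gzmk was below Prf1 in pre-exposed mice 1, 2 and 4, and its highest value was 61.7 CPM per kilobase in mouse 3. Nkg7 exceeded Cst7 per kilobase by 10.1, 9.35, 9.98, 8.3 and 9.49 times in pre-exposed mice 1 to 5, against 7.39, 6.82, 6.54, 5.04 and 6.22 times in naïve mice 1 to 5. This ratio did not overlap between groups, and it was not corrected for the length trend. Nkg7 has 813 bases and Cst7 986, and at these lengths the trend was higher in pre-exposed mice by 0.64 and 0.52 on the log2 scale.

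**Figure D3:**
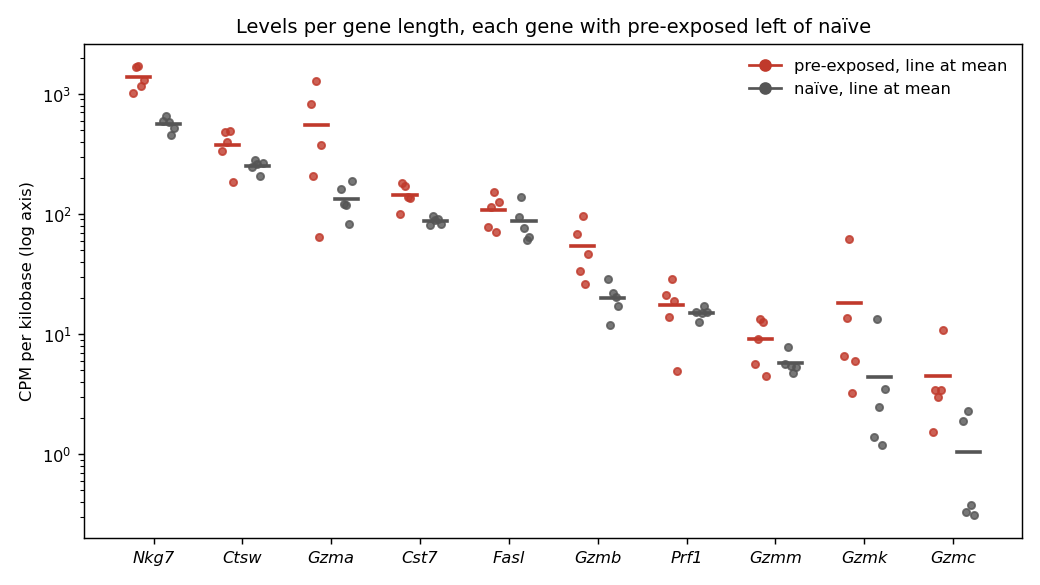
Each point is a mouse, in CPM per kilobase of gene length on a log axis, with pre-exposed mice (red) left of naïve mice (grey) and a line at the mean of each group (n = 5). Genes are ordered by their naïve mean, and Nkg7 is highest in both groups, at 1370 and 562.7 CPM per kilobase.

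Members also differed in how they varied among the mice. As a description over 10 libraries, the mean-centred log2 CPM of Gzmm and Ctsw differed by a root mean square of 0.27, that of Nkg7 and Cst7 by 0.32 and that of Cst7 and Ctsw by 0.38, the smallest distances between members. Gzma and Gzmb differed by 0.73. Outside the members, the genes nearest to Nkg7, out of 7592 with a mean of at least 20 CPM, were Selenoh (0.20), Fth1 (0.21), Gm13167 (0.24), Ssr4 (0.25) and Fh1 (0.25). These 5 genes are between 679 and 1632 bases long. Nkg7 is also the member with the highest mean CPM, so no further gene was used for this ranking.

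Around the members, the genes that build, release and restrain the granule were read from lists of 52 genes, of which 45 were tested. edgeR called 2 of them higher and 0 lower, against 5.12% of all genes called higher, and their median log2 fold change was 0.06. Among 11 genes of granule assembly, 1 was called higher and 0 lower, with a median log2 fold change of -0.02. This was Ctsl, for the lysosomal protease cathepsin L, at 38.9 ± 16.5 CPM in pre-exposed mice and 12.2 ± 2.55 CPM in naïve mice (SD, n = 5 each, log2 fold change 1.66, edgeR adjusted p = 0.0141). It was 1.6 with the gene-length trend removed (edgeR adjusted p = 0.0274), and the call was lost under 8 of 28 alternatives, with adjusted p between 0.000135 and 0.423. Cd63, a tetraspanin of the granule membrane, had a log2 fold change of 1.17 (edgeR adjusted p = 0.0519). Igf2r, the mannose 6-phosphate receptor that sorts granzymes, had -0.72 (edgeR adjusted p = 0.174), and Ctsb, for cathepsin B, had 0.52 (edgeR adjusted p = 0.24). Lamp1, whose product CD107a marks degranulation at the cell surface, averaged 182.9 ± 40 CPM in pre-exposed mice and 223.5 ± 52.3 CPM in naïve mice (SD, n = 5 each, log2 fold change -0.29, edgeR adjusted p = 0.483).

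Of 11 genes of granule exocytosis, 10 were tested, 1 was called higher and 0 were called lower, with a median log2 fold change of -0.30. Vamp8, for a vesicle protein of membrane fusion, averaged 333.3 ± 97.9 CPM in pre-exposed mice and 166.5 ± 12.2 CPM in naïve mice (SD, n = 5 each, log2 fold change 1.00, edgeR adjusted p = 0.0305), and it is short, at 786 bases. With the gene-length trend removed it had a log2 fold change of 0.29 (edgeR adjusted p = 0.413), and the call was lost under 15 of 28 alternatives, with adjusted p between 0.000592 and 0.839. The synaptotagmin-like gene Sytl1, Arl8b for a GTPase that moves lysosomes, and Stx11 for the fusion protein syntaxin 11 had log2 fold changes of -0.78, -0.52 and -0.45, and edgeR adjusted p of 0.244, 0.249 and 0.332. Vamp7 had 0 counts in every library, and whether its reads could be mapped and counted here was not tested. Among the death ligands and their receptors, 0 of 11 were called, and the smallest p belonged to Fas, the receptor of Fas ligand, at 64.8 ± 15.9 CPM in pre-exposed mice and 38.6 ± 9.6 CPM in naïve mice (SD, n = 5 each, log2 fold change 0.74, edgeR adjusted p = 0.0869). Tnfrsf10b, for the mouse TRAIL receptor, had 1.23 (edgeR adjusted p = 0.104), and Fadd and Tnfsf10 had 0.56 and -0.56 (edgeR adjusted p = 0.271 and 0.361).

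The granzyme inhibitors and the regulators gave no call. Serpinb6a, Serpinb6b and Serpinb9, of which Serpinb9 encodes an inhibitor of granzyme B, had log2 fold changes of -0.41, -0.06 and 0.00 (edgeR adjusted p = 0.372, 0.904 and 0.997). Of 10 transcription factors and cytokine receptors of the cytotoxic programme 0 were called, with a median of 0.09. Zeb2, Id2, Il15ra and Prdm1 had the smallest p, with log2 fold changes of 0.40, 0.38, 0.17 and 0.27 (edgeR adjusted p between 0.374 and 0.712). The other granzymes Gzmd, Gzme and Gzmn had 0 counts in every library, and Gzmf and Gzmg had at most 4 and 2 counts, so that a difference was not detectable at this depth, where a count of 0 allows up to 3 counts, or between 0.146 and 0.545 CPM, per library.

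**Figure D4:**
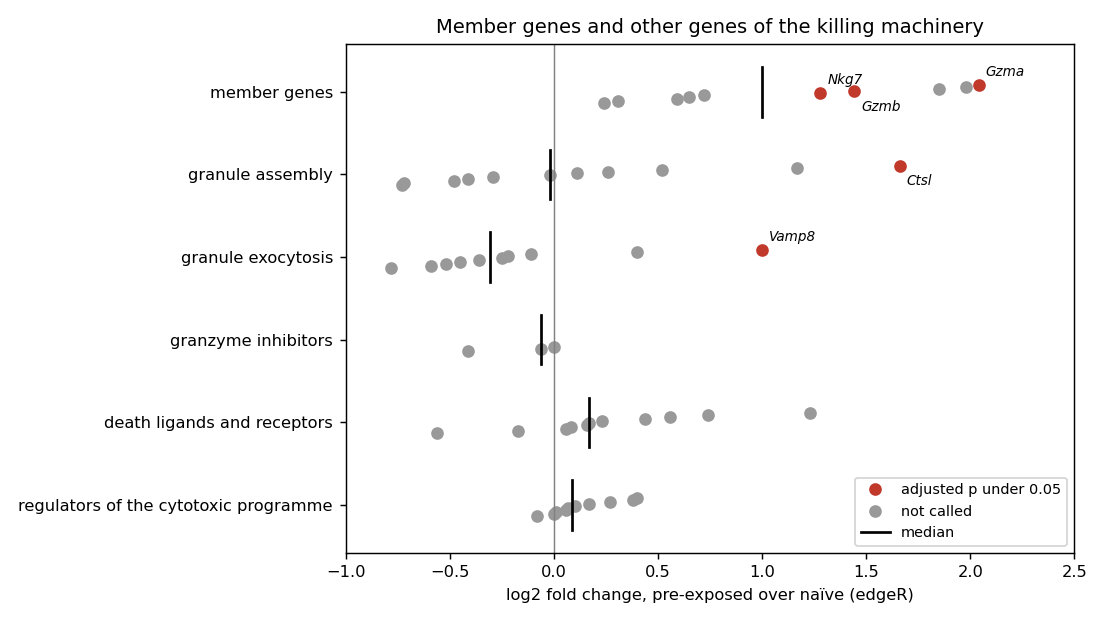
Each point is a gene, placed by its log2 fold change of pre-exposed over naïve mice in edgeR, in rows for the members and for 5 lists, with a black line at the median and genes with an adjusted p under 0.05 in red. The median is 1.00 for the members, against -0.02 for granule assembly and -0.30 for granule exocytosis, where Ctsl and Vamp8 are called.

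These are sorted cells in bulk, so that more cells carrying a transcript and more transcript per cell cannot be told apart. NK cells and conventional CD8+ T cells also carry granzymes, and their markers were read for the whole lists. The summed level of the 10 NK markers was 1080, 1266, 1646, 1064 and 4469 CPM in pre-exposed mice 1 to 5, against between 707 and 1865 CPM in naïve mice. Of these, 9 were tested and 3 were called higher, against 5.12% of all genes tested. They were Klra8, Tyrobp and Klrg1, with log2 fold changes of 3.51, 2.48 and 2.78 (edgeR adjusted p = 0.0185, 0.0093 and 0.0184). All pre-exposed mice lay above all naïve mice for Klra8 and Tyrobp, and 4 did for Klrg1. Of the defining NK markers, Ncr1 had 32.7, 53.7, 46.2, 17.5 and 27.3 CPM in pre-exposed mice 1 to 5, against between 10.8 and 41.9 CPM in naïve mice, and Klrb1c had between 266.3 and 591.3 CPM in pre-exposed mice, against between 275.7 and 774.5 CPM in naïve mice. Only pre-exposed mouse 5 lay above the naïve range of the NK sum. For the αβ T cell markers the sum lay between 1576 and 3289 CPM in pre-exposed mice, against between 1642 and 1992 CPM in naïve mice, and 1 of 6 was called higher. Cd8a had 43.5, 53.2, 90.4, 30.7 and 8.54 CPM in pre-exposed mice 1 to 5, against between 7.8 and 28.3 CPM in naïve mice, and Cd4 had 108.4, 82.8, 79.2, 113 and 6.9 CPM in pre-exposed mice 1 to 5, against between 8.51 and 38.7 CPM in naïve mice. Cd8b1 had 19.4, 42.6, 20.2, 15.1 and 5.27 CPM in pre-exposed mice 1 to 5, against between 1.1 and 27.2 CPM in naïve mice, and a single pre-exposed mouse lay above all naïve mice (edgeR adjusted p = 0.297). The αβ T cell marker called higher was Trac (log2 fold change 1.17, edgeR adjusted p = 0.0222). It had between 270 and 506.9 CPM in pre-exposed mice, against between 126.9 and 228.3 CPM in naïve mice. In pre-exposed mouse 5, Cd8a and Cd8b1 were within the naïve range and Cd4 was under it. The αβ T cell sum of that mouse, at 2574 CPM, lay above the naïve range. The part of these cells in the granzyme values was not tested.

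Markers of myeloid cells also moved. Over all genes tested, edgeR called 5.12% higher. For monocyte and macrophage markers the summed level was 956.7, 1475, 621.7, 320.2 and 46.9 CPM in pre-exposed mice 1 to 5, against between 35.3 and 160.7 CPM in naïve mice, and 5 of the 5 tested of 9 were called higher. That of conventional dendritic cell markers was 416.2, 434.4, 234.1, 210 and 66.9 CPM in pre-exposed mice 1 to 5, against between 57.4 and 82.2 CPM in naïve mice, with 4 of 7 called higher. That of plasmacytoid dendritic cell markers lay between 179.9 and 676.9 CPM in pre-exposed mice, against between 141.3 and 191.5 CPM in naïve mice, with 5 of 7 called higher. Of the defining markers Csf1r, Zbtb46 and Siglech, pre-exposed mouse 5 held 0.545, 0.363 and 0.545 CPM, all within the naïve range. Adgre1, Clec4n, Flt3, Clec9a, Ly6d and Tcf4 lay above the naïve range in every pre-exposed mouse, mouse 5 included. The remaining markers of these lists did not. The lowest pre-exposed values were 9.47, 17.9 and 1.45 CPM for Adgre1, Tcf4 and Clec9a, against at most 3.08, 13.2 and 1.16 CPM in naïve mice. For erythroid markers the sum lay between 261.4 and 1726 CPM in pre-exposed mice, against between 62.1 and 352.9 CPM in naïve mice, with 3 of 5 called higher. For mast cell and basophil markers the sum was 34, 63.6, 49.3, 26.7 and 12.4 CPM in pre-exposed mice 1 to 5, against between 4.33 and 11.3 CPM in naïve mice. The groups did not overlap in this sum, and 1 of the 2 tested of 5 was called higher. Of its defining markers, Mcpt8 had 17, 27.3, 15.2, 9.02 and 0.182 CPM in pre-exposed mice 1 to 5, against at most 0.289 CPM in naïve mice, and Cpa3 had between 10.8 and 21.9 CPM in pre-exposed mice, against between 3.03 and 11.3 CPM in naïve mice. In the other lists, 2 of 3 tested B cell markers, 1 of 10 γδ T cell markers and 0 of 2 tested neutrophil markers were called higher. Their part in the values of the members was not tested.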

How the data were processed

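RNA of EM γδ T cells from 5 pre-exposed and 5 naïve mice was sequenced, with 1 library per mouse and groups taken from the sample titles. The authors mapped read pairs to mm10 with the Subread aligner, counted pairs over each Entrez gene with featureCounts, and deposited the whole-number counts as they were, not normalized. Versions of Subread and featureCounts were not given in the sources used here, nor was use of strand in counting. The library kit is an Illumina TruSeq kit in the labels but a SMART ultra-low input one in the study's methods.

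The members and the gene lists were chosen with earlier results of these data known. Genes were filtered with filterByExpr, which kept 13534 of 27179 genes, of which 767 without a symbol and 112 immunoglobulin genes were left out, so that 12655 were tested. Symbols were matched for 25275 IDs. Library sizes were summed over the genes tested and scaled by TMM. Groups were compared with edgeR 4.0.16 (R 4.3.3) by its quasi-likelihood test with robust estimates, all 10 libraries and no covariate, and with Benjamini-Hochberg adjustment over all genes tested. SE was the fold change over the square root of F. Exact two-sided permutation tests used the mean log2 CPM per group (prior count 2). The script was tested on simulated counts. Alternatives were other scalings and filters, limma 3.58.1 (voom and TREAT at 1.5-fold), DESeq2 1.42.0, the replicate number as a block, a gene-length offset (loess, span 0.3), the index pair as a covariate, and libraries left out. The runs of these for Ctsl and Vamp8 were added after seeing the data. A count of 0 allows up to 3 counts (95% confidence, counting error only).

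All 10 members are named, then up to 4 tested genes per list by smallest p, Lamp1, the defining markers, and the 5 genes most like Nkg7. Promoter windows came from RefSeq. On GRCm38, Gzmk overlaps Esm1 and Ctsw overlaps Fibp on the opposite strand, by 0 and 9 exonic bases, so their counts are uncertain to that extent. No stretch of 75 bases of a member's transcripts was shared with another gene.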

Additional observations from a re-analysis of the deposited data

Results flagged for a closer look

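Among the 20 sets of 5 mice given by 10 genes in 2 groups, 4 held a mouse farther from the others than Dixon's test allows at 95%. Chance gives such a flag to about 1 in 20 sets if values are normally distributed. The test was run on CPM and not on log2 CPM, and the distribution was not tested, so the number of flags is not compared with that rate. Gzmc was 10.2 CPM in pre-exposed mouse 5, with the nearest mouse of its group at 3.21 CPM. Gzmk was 48.9 CPM in pre-exposed mouse 3, with the nearest at 10.8 CPM, and 10.5 CPM in naïve mouse 2, with the nearest at 2.75 CPM. Gzmm was 10 CPM in naïve mouse 2, with the nearest at 7.27 CPM.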

How the results depend on the processing

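Of 280 member comparisons under 28 alternatives, 221 kept direction and side of the threshold, 44 lost a call, 10 gained one and 5 reversed. Reversed values were log2 fold changes of Gzmm (-0.19) and Prf1 (-0.16) with the index pair as a covariate, of Gzmm (-0.14) and Prf1 (-0.12) with pre-exposed mice 1 and 5 alone, and of Prf1 (-0.01) without pre-exposed mouse 3, none of them called (Prf1 ran between -0.01 and 0.43 with 1 library left out), and the cause was not tested. The permutation tests kept their side of the threshold for 10 of 10 members with a prior count of 0.5. In place of 796 genes called (648 higher, 148 lower) and 3 members called, counts were 2 (2 and 0) and 0 members with voom and TREAT (882 at unadjusted p under 0.05), 287 (166 higher) and 1 with quality weights added, 1350 (1008 and 342) and 5 with DESeq2, 358 (307 and 51) with the legacy dispersion, 214 (186 and 28) and 0 with the gene-length offset, 40 (39 and 1) and 0 with the index pair, 23 (23 and 0) and 1 with pre-exposed mice 1 and 5 alone, and 3776 (1891 and 1885) and 5 with mice 2 to 4 alone. With 1 library left out, counts ran between 53 and 1870 genes called, 49 and 1204 higher, 4 and 710 lower, and 1 and 5 members. The 2 alternatives added after seeing the data gave 2 members with library sizes over all genes, and 298 genes lower and 1 member with the gene-length offset and without pre-exposed mouse 5. Replicate numbers did not pair the mice, with correlations of same-numbered deviations between -0.261 and 0.053 and no mouse closest to its own number. The replicate block called 54 genes (44 and 10) and 0 members, with adjusted p in edgeR of 0.159, 0.0794 and 0.0678 for Gzma, Gzmb and Nkg7, and 18 (15 and 3) and 0 members with the gene-length offset. Depth limited Gzmc and the other granzymes.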
